A study of Mus musculus with 4 samples.

Results

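The genes described here are 8 S100 genes (*S100a1*, *S100a3*, *S100a4*, *S100a6*, *S100a10*, *S100a11*, *S100a13* and *S100a16*), taken by gene symbol from the 56748 gene IDs that were counted. S100 proteins are small calcium-binding proteins with a pair of EF-hand loops. Most of them act as dimers that bind a partner protein when calcium rises, and they take part in membrane repair, cytoskeletal dynamics, calcium handling and, for some members, signalling outside the cell. In skeletal muscle S100a1 is the member best known from contractile fibres, whereas S100a6, S100a10 and S100a11 are broadly expressed in dividing and adherent cells.

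Direct RNA was sequenced by nanopore from C2C12, an established mouse myoblast line of wild-type genotype in the labels, grown as myoblasts. In the scrambled group (2 libraries) the cells carried a scrambled shRNA, and in the *Hnrnpl* knockdown group (2 libraries) they carried a mixture of 3 shRNAs against *Hnrnpl*, the gene of an RNA-binding protein that acts in splicing. All cells had been transfected with plasmids that also expressed eGFP and had been selected with puromycin, and the replicates of a group were passages of 1 selected stable line, so differences between the lines and effects of the shRNA cannot be told apart, and p-values measure the spread between passages. The labels number the libraries of each group 1 and 2, and name no batch. In the paper's supplement, libraries with the same number carry the same date. Each number is called a batch here, and each of the 2 batches contributed a library to either group.

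The libraries held between 1229424 and 1676911 reads counted on genes, so that a count of 0 allows between 1.79 and 2.44 CPM (the reads of a gene for every 1000000 reads counted), taken at 3 counts and covering counting error only. *Hnrnpl* itself had 358 and 656 reads in scrambled and 242 and 258 in knockdown. Its log2 fold change was -0.78 (edgeR, adjusted p = 0.0112). It was -0.48 without scrambled 2 and -0.62 without knockdown 1, and was not called in either. It was -1.03 without scrambled 1 and -0.95 without knockdown 2. With the batches as a block it was -0.76 (edgeR, adjusted p = 0.00652). DESeq2 gave -0.78 with either fit, at an adjusted p of 0.0567 (parametric) and 0.00882 (local). Of the settings that kept all libraries, only the parametric fit left *Hnrnpl* uncalled. The paper also reports lower *Hnrnpl* by qPCR. Of 8 myoblast markers, 7 had reads, with *Des* and *Myf5* above 90 CPM in each library, but *Myod1* had 1 read in all and *Pax7* none. Markers of macrophages, endothelium, neutrophils, glia and fibroblasts summed to 7.16 CPM or less per list and library, with *Ptprc*, *Adgre1*, *Pecam1*, *Kdr*, *Ly6g*, *Sox10*, *Thy1*, *Lum* and *Col1a1* at 0, and the epidermal list summed to between 11.9 and 25.2 CPM with *Krt1* at 0. The summed myoblast markers lay at 698 and 835 CPM in scrambled and at 461 and 385 CPM in knockdown, and of the 5 that passed the filter on low counts, 4 (*Des*, *Cdh15*, *Ncam1* and *Chrna1*) were called lower, against 3.22% of all genes tested. In such bulk samples fewer cells of a type and less RNA per cell cannot be told apart. The part of these markers in the S100 values was not tested.

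All 8 genes lie on chromosome 3 (GRCm39, GENCODE vM39). *S100a13* (ENSMUSG00000042312.11, 90416091 to 90431912, forward strand), *S100a1* (ENSMUSG00000044080.10, 90418340 to 90421848, reverse strand), *S100a16* (ENSMUSG00000074457.11, 90444172 to 90450462), *S100a3* (ENSMUSG00000001021.14, 90491966 to 90510009), *S100a4* (ENSMUSG00000001020.9, 90511074 to 90513354) and *S100a6* (ENSMUSG00000001025.9, 90520140 to 90535843) follow each other closely. *S100a11* (ENSMUSG00000027907.5, 93414382 to 93435293) and *S100a10* (ENSMUSG00000041959.15, 93462213 to 93474510) stand apart from these as neighbours. Except for *S100a1*, all are read from the forward strand. Their coding sequences are short, from 267 bases in *S100a6* to 372 bases in *S100a16*, whereas the transcripts that the annotation names as canonical run from 503 bases (*S100a4*) to 4412 bases (*S100a13*).

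The promoters of the 3 members that passed the test below are shown to let them be compared with each other. They are RefSeq windows in GRCm38.p6, from 250 bases before the start site to 50 after it, on the forward strand of chromosome 3. RefSeq windows were matched for 7 of the 8 members, 11 windows in all, and *S100a10* had none. Capitals mark matches to the E-box CANNTG and to the AP-1 site TGANTCA on either strand.

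*S100a6* (chr3:90612644-90612943): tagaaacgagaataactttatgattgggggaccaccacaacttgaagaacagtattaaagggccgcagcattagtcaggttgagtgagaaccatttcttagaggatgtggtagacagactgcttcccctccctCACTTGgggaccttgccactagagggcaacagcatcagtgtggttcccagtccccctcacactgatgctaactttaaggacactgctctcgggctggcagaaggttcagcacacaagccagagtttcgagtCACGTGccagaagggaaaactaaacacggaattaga

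*S100a11* (chr3:93520246-93520545): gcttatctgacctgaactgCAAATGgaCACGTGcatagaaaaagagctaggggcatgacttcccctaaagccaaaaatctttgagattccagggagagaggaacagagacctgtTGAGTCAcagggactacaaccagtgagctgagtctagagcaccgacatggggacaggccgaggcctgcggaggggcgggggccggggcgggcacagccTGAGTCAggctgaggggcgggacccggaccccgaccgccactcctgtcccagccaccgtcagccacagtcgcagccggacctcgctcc

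*S100a16* (chr3:90537004-90537303, the first of 2 windows): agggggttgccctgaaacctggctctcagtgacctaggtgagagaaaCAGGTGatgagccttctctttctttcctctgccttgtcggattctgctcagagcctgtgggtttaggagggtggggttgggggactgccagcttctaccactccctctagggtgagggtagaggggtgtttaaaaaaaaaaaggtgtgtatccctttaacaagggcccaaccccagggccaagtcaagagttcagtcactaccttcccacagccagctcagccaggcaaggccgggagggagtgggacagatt

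The window of *S100a6* held 2 E-boxes, that of *S100a11* held 2 and that of *S100a16* held 1, a motif found in 72.3% of all 32851 promoter windows of this length. The AP-1 site was found at 2 places in *S100a11*, and in neither *S100a6* nor the window of *S100a16* shown, against 7.81% of all windows. One E-box in *S100a6* and one in *S100a11* read CACGTG, which is found in 7.15% of all windows. This form was looked for after the sequences had been seen. None of the 3 windows shown held TATAAA, which 13.6% of windows hold, while the window of *S100a4* and 1 of the 4 windows of *S100a3* held it once each. The GC box GGGCGG was found at 3 places in *S100a11* (35.7% of all windows hold it), and the M-CAT motif CATTCC in none of these 3 windows (14.7%). The second window of *S100a16* held 1 AP-1 site, 4 E-boxes and 1 GC box. A match is a description of letters and not of a bound site.

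*S100a1* and *S100a13* are read away from each other from RefSeq start sites 105 bases apart, and their windows share 204 bases. The window of *S100a1* held none of these motifs and that of *S100a13* held 1 E-box. CA repeats, which hnRNP L is known to bind, were looked for in the canonical transcripts as at least 4 CA units in a row. Among the 8 members only *S100a10* held such a run, of 44 bases, and 19.3% of the 8662 tested genes with a canonical transcript held one. Introns were not searched.

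The question was how these genes differ in level between scrambled and knockdown. *S100a6* and *S100a11* rose to 1.58 and 1.56 times their level, *S100a16* fell to 0.502 times, and *S100a10* and *S100a13* were called in neither direction. Of the 8 members, 7 passed the filter on low counts and 3 of these were called, of which 2 were higher in knockdown and 1 was lower. A gene was called where edgeR (quasi-likelihood test) gave a p under 0.05 after the adjustment of Benjamini and Hochberg over all 8670 genes tested, the log2 fold change passed 0.5 in either direction and the normalized count averaged more than 10. By this rule 5.55% of all genes tested were called, 2.33% higher and 3.22% lower. Over the 7 members tested the log2 fold change had a median of 0.54, compared with 0.10 over the 431 genes tested on chromosome 3 and -0.00059 over all genes tested. Without *S100a4*, the few reads of which do not give its level, the median of the other 6 was 0.30, a value added after seeing the data. Groups were apart in their normalized counts, without overlap, for 5 of the 7 members, 4 of 6 without *S100a4*, and for 52.4% of all genes tested.

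**Figure D1:**
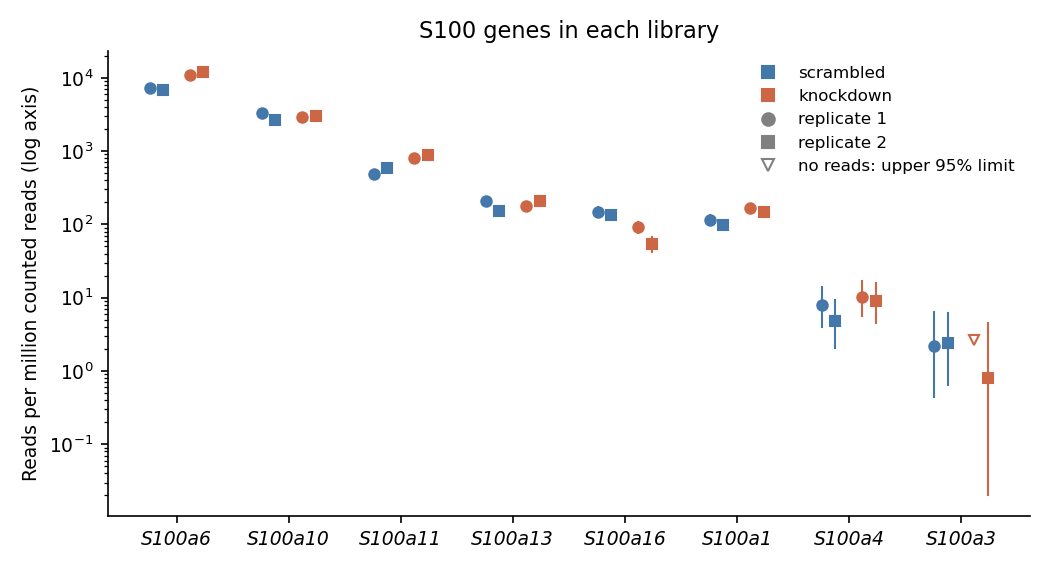
CPM (log axis) of the 8 S100 genes in each library. Blue is scrambled and orange is knockdown, circles are replicate 1 and squares replicate 2, lines are 95% Poisson intervals, and an open triangle is the upper limit where no read was counted. The counted values of *S100a6* lie between 6829 and 11864 CPM and those of *S100a3* at 2.39 CPM or less.

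By CPM per kb of the canonical transcript, the order of the means from highest to lowest was the same in both groups, namely *S100a6*, *S100a10*, *S100a11*, *S100a1*, *S100a16* and *S100a13*. *S100a4* and *S100a3* were listed last, with too few reads to give their levels. *S100a6* had a mean of 9051 CPM per kb in scrambled and 14600.5 in knockdown, and *S100a10* had 871 and 872. In scrambled, *S100a1* (118 and 139 CPM per kb) and *S100a16* (117 and 130) overlapped, so that their order there is not set. In knockdown they did not, with *S100a1* at 177 and 202 and *S100a16* at 46.4 and 79.2. *S100a13*, at 40.4 and 47.4 in knockdown, overlapped with *S100a16* there. A direct RNA read stands for 1 molecule whatever its length, so the order was also taken by reads alone, where *S100a13* moved up to the fourth place in both groups. By reads the fifth and the sixth place were held by *S100a16* and *S100a1* in scrambled and by *S100a1* and *S100a16* in knockdown, so that this order differed between groups.

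*S100a6* (calcyclin), which is abundant in many dividing cells, was counted with 10117 and 11451 reads in the scrambled libraries, and with 15001 and 14586 reads after knockdown. It was among the 7 genes with the most reads in every library. Its normalized count was 10113 ± 678 (SD, n = 2) for the scrambled group and 15996 ± 1486 (SD, n = 2) for the knockdown group, with both knockdown libraries above both scrambled libraries. The log2 fold change was 0.66 (standard error 0.15, 95% interval 0.34 to 0.98, adjusted p = 0.0144 from edgeR), with 0.50 in batch 1 and 0.82 in batch 2. Without scrambled 2 the adjusted p was 0.119, at a log2 fold change of 0.59.

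*S100a11* (calgizzarin), a partner of annexin A1, had 666 and 985 reads in scrambled and 1117 and 1087 in knockdown. Scaled for depth this was 763 ± 92.9 (SD, n = 2) and 1192 ± 111 (SD, n = 2) normalized counts, again without overlap between the groups. Its log2 fold change was 0.64 (standard error 0.14, 95% interval 0.34 to 0.94, adjusted p = 0.0102 from edgeR), with 0.67 within batch 1 and 0.62 within batch 2. Without scrambled 1 the log2 fold change was 0.52 with an adjusted p of 0.126.

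*S100a16*, a widely expressed member, had 208 and 227 reads in scrambled and 126 and 66 in knockdown, so that it went the other way. The normalized counts were 204 ± 19.0 (SD, n = 2) and 101 ± 34.2 (SD, n = 2). Both knockdown libraries lay below both scrambled libraries, and they differed from each other more than the scrambled libraries did. The log2 fold change was -0.99 (standard error 0.19, 95% interval -1.40 to -0.59, adjusted p = 0.00433 from edgeR), with -0.79 in batch 1 and -1.31 in batch 2. Over 13 alternative settings its log2 fold change ranged from -1.40 to -0.70, and it was called in each that kept all libraries. The settings with chromosome medians removed and with no fold change threshold reuse the p-value given here.

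**Figure D2:**
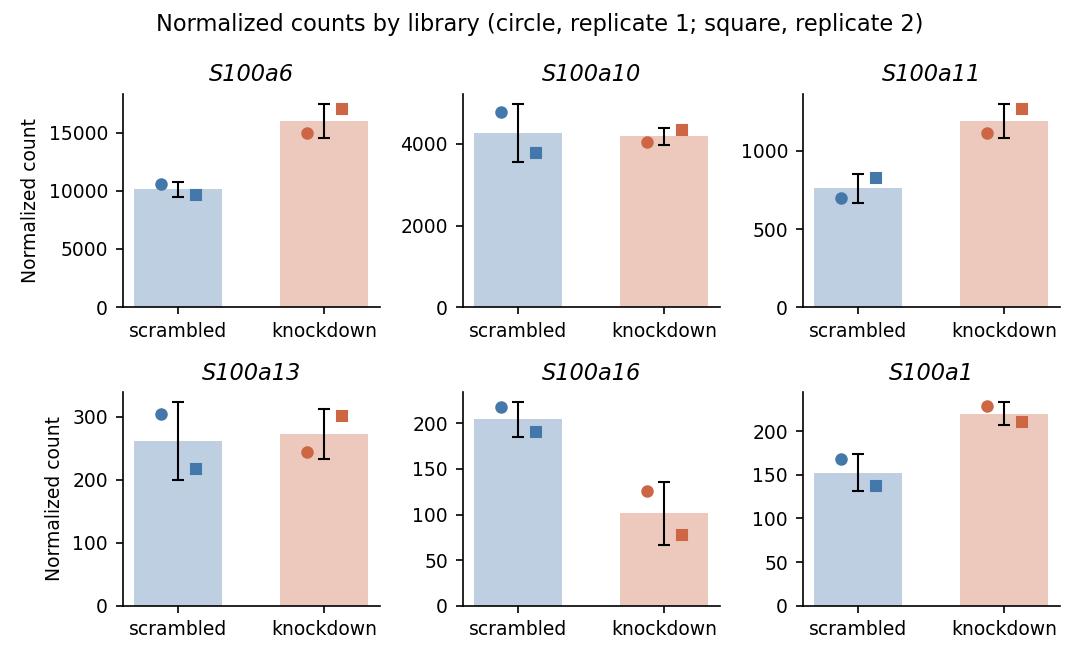
Normalized counts (linear axis from 0) of the 6 members with the most reads. Bars are means, error bars are the SD of 2 libraries, circles are replicate 1 and squares replicate 2. *S100a6*, *S100a11* and *S100a1* lie higher in both knockdown libraries, *S100a16* lies lower in both, and *S100a10* and *S100a13* overlap.

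*S100a1*, which in muscle binds the ryanodine receptor and the calcium pump of the sarcoplasmic reticulum, had 160 and 163 reads in scrambled and 230 and 180 in knockdown. Its normalized counts were 152 ± 21.5 (SD, n = 2) and 220 ± 13.3 (SD, n = 2) and did not overlap. The log2 fold change of 0.54 (standard error 0.16, 95% interval 0.20 to 0.87) had an unadjusted p of 0.0035 and an adjusted p of 0.0542 from edgeR, so it was not called. It was called in 4 of 13 alternative settings, among these without scrambled 1, and their adjusted p ranged from 0.0443 (without scrambled 1) to 0.566.

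*S100a13*, which takes part in the export of FGF1 from cells, had 291 and 258 reads in scrambled and 245 and 257 in knockdown. The normalized counts of 305 and 217 in scrambled enclosed those of 244 and 300.4 in knockdown. Its log2 fold change was 0.06 (standard error 0.17, 95% interval -0.29 to 0.42, adjusted p = 0.867 from edgeR), and the batches differed in sign, with -0.32 in batch 1 and 0.47 in batch 2. Of the 27 transcripts annotated for it and the 10 for *S100a1*, exons of the one overlap exons of the other on opposite strands, over 59.9% of the canonical transcript of *S100a1*. The strand setting of the counting is not given in the sources used here. In these files 44.6% of the 1907 protein-coding genes whose 3′ end is shared with a gene on the opposite strand had at least 20 reads, against 4.50% of the 289 that share it with a gene on the same strand and 38.0% of the 14207 that share no exon base. The 3′ ends of *S100a1* and *S100a13* are not themselves shared, the first shared base lying 313 and 1754 bases from them, and how the overlap bears on the counts of this pair was not tested.

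*S100a10* (p11), whose EF-hands do not bind calcium and which forms a complex with annexin A2, had 4561 and 4479 reads in scrambled and 4053 and 3707 in knockdown. Its normalized counts, 4775 and 3768 in scrambled and 4038 and 4332 in knockdown, overlapped. The log2 fold change was -0.03 (standard error 0.15, 95% interval -0.34 to 0.29, adjusted p = 0.936 from edgeR). The raw counts were lower in both knockdown libraries, which also held fewer reads.

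*S100a4* (metastasin), a partner of non-muscle myosin IIA, had 11 and 8 reads in scrambled and 14 and 11 in knockdown. Its log2 fold change of 0.59 had a standard error of 0.45 and an adjusted p of 0.48 from edgeR, with an interval from -0.35 to 1.52. These reads do not give its level. The gene *Gm42674*, on the same strand, has exons over 60.0% of the canonical transcript of *S100a4*, and the first shared base lies 162 bases from the 3′ end, where a direct RNA read starts. The counting mode is not given in the sources used here, and HTSeq in its default mode sets a read that touches exons of more than 1 gene aside as ambiguous, and *Gm42674* is listed with no reads in any library. Up to 16.5% of all reads of a library were listed as ambiguous, and how many came from *S100a4* was not measured.

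*S100a3*, known from the hair cuticle, had 3 and 4 reads in scrambled and 0 and 1 in knockdown and did not pass the filter. The ratio of summed reads, scaled for depth, was 0.165 with a counting interval from 0.00365 to 1.28, so no difference was detectable at this depth. *Gm42674* also overlaps 20.2% of its canonical transcript, from 390 bases before the 3′ end, and *S100a2* shares 153 exon bases with its other transcripts. The other 6 members share no exon base with a gene on their own strand. All 111 annotated transcripts of the 8 members mapped back to their own gene alone, with a mapping quality of 60. These were whole annotated sequences and not reads, so how the reads of these genes map was not tested. Between 22.7% and 23.8% of all reads of a library were listed with too low a mapping quality, and how many came from the members was not measured.

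Summed, the 8 genes took 1.15% and 1.05% of the counted reads in scrambled and 1.51% and 1.62% in knockdown, a ratio of 1.42 between the group means. *S100a6* held 63.2% and 65.2% of these reads in scrambled and 72.2% and 73.3% in knockdown, and *S100a10* held 28.5% and 25.5% against 19.5% and 18.6%. Without *S100a6* the ratio was 1.08, with 4252 and 3652 CPM in scrambled and 4208 and 4318 CPM in knockdown, which overlapped.

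**Figure D3:**
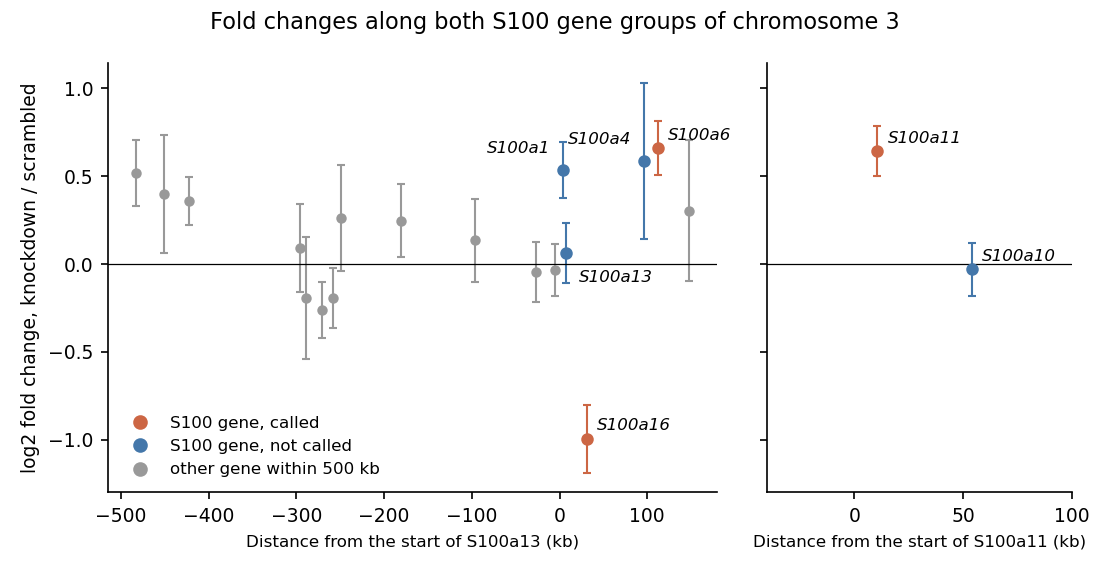
Log2 fold change (points, with standard errors) of S100 genes and of the other tested genes within 500 kb, at the middle of each gene, against the distance in kb from the start of *S100a13* (left) and of *S100a11* (right). *S100a16* lies at -0.99 between *S100a13* at 0.06 and *S100a6* at 0.66, the wide error bar of *S100a4* rests on few reads, and no neighbour was called. The neighbours tested all lie around the members from *S100a13* to *S100a6*.

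Neighbouring members had unlike values, with *S100a16* called lower and *S100a6* called higher on the same strand, and *S100a11* called higher beside *S100a10* at -0.03. Of 106 other genes within 500 kb of a member, 13 passed the filter. All 13 lie around the members from *S100a13* to *S100a6*, so no neighbour of *S100a11* and *S100a10* was tested. By edgeR 0 of the 13 were called, against 5.55% of all genes tested. Of the 13, 2 had an unadjusted p under 0.05 (*Ubap2l* at 0.52 and *Tpm3* at 0.36 on the log2 scale), against 21.8% of all genes tested. By DESeq2 0 were called and 1 had an unadjusted p under 0.05, against 1.36% and 6.40% of all genes with the local fit. These DESeq2 shares are over 16728 genes, which include those below the filter on low counts, so they are not like for like with the 13. Counts this low in 13 genes are near the share of all genes. Their log2 fold changes lay between -0.26 and 0.52 with a median of 0.14. *Chtop*, which lies next to *S100a13* and shares exon bases with it on the opposite strand, had 244 and 311 reads in scrambled, and 271 and 200 reads in knockdown. These overlapped, and the log2 fold change stood at -0.04 with an adjusted p of 0.918 in edgeR.

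The other S100 genes were nearly silent. Of 17 further S100 and fused-type S100 genes listed in the files, 1 passed the filter, *S100a7a*, with 14 and 13 reads in scrambled and 14 and 15 in knockdown (log2 fold change 0.30, standard error 0.40, adjusted p = 0.711 from edgeR). *S100a2*, *S100a5*, *S100a8*, *S100a14*, *S100b* and *Tchh* had 5 reads or fewer in all. *S100a9*, the partner of *S100a8* in neutrophils, had none, and neither did *S100g*, *S100z*, *S100a7l2*, *Flg*, *Hrnr* or the remaining fused-type genes of the epidermis.

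Partner proteins of the S100 family were taken from a list of 30 genes, of which 23 passed the filter. Only *Ppfibp1* was called, 1 of the 23 or 4.35% of them, a share near the 5.55% of all genes, while 9 of the 23 (39.1%) had an unadjusted p under 0.05, against 21.8% of all genes. *Ppfibp1*, which encodes liprin beta 1, a partner of S100a4, had 139 and 148 reads in scrambled and 209 and 194 in knockdown. Both knockdown libraries were above both scrambled ones, and the log2 fold change, 0.69 with a standard error of 0.16, passed the test (adjusted p = 0.0138 from edgeR). It lies on chromosome 6, where the median log2 fold change was 0.28, and it was not called by DESeq2, with chromosome medians removed, without knockdown 2 (0 partners called), without knockdown 1 (*Anxa6* called alone) or without scrambled 2 (*Plec* called alone).

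None of the 5 annexins in the list was called in edgeR as described, and they did not all lie on the same side of 0. *Anxa2*, the partner of S100a10, had 3093 and 4053 reads in scrambled and 2875 and 2586 in knockdown (log2 fold change -0.18, adjusted p = 0.495 from edgeR). *Anxa1*, the partner of S100a11, had 5452 and 6337 reads in scrambled and 4279 and 3573 in knockdown. Its normalized counts did not overlap between groups, and its log2 fold change was -0.39 with an adjusted p of 0.11 from edgeR, beside 0.64 for *S100a11*. *Anxa6*, which binds membranes in a calcium-dependent way, stood at -0.56 with an adjusted p of 0.0566, and it was called lower in 4 of 13 alternative settings, over which the adjusted p ranged from 0.00978 to 0.352. *Anxa5*, another membrane-binding annexin, had 739 and 749 reads in scrambled and 936 and 695 in knockdown, and stood above 0 at 0.32 (adjusted p = 0.207). *Anxa11*, a partner of S100a6, stood at -0.12 (adjusted p = 0.806). *Ahnak*, a scaffold bound by the S100a10 and annexin A2 complex, stood at -0.25 (adjusted p = 0.29). *Ahnak* was not called either.

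*Cacybp*, the calcyclin-binding protein named after S100a6, had 745 and 773 reads in scrambled and 702 and 802 in knockdown, which overlapped after scaling, with a log2 fold change of 0.19 (95% interval -0.13 to 0.52, adjusted p = 0.503 from edgeR). *Myh9* and *Myh10*, the non-muscle myosin heavy chains bound by S100a4, stood at -0.33 (adjusted p = 0.22) and 0.02 (adjusted p = 0.963). *Atp2a2*, a calcium pump bound by S100a1, stood at 0.11 (adjusted p = 0.72). *Ryr1* had 3 reads in all, and no reads were counted on *Fgf1* or on *Ager*, the gene of the receptor RAGE.

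The genes most like *S100a16* and *S100a11*, the members with the smallest p, were sought among 4501 genes by the Euclidean distance between centred log2 normalized counts over the 4 libraries. For *S100a16* these were *Btbd1* (distance 0.178), *Vcan* (0.205) and *Eef1a1* (0.242), the last of which has near-identical processed pseudogenes, so that its counts are uncertain. For *S100a11* they were *Vps50* (0.0367), *Pak2* (0.0804) and *Glmp* (0.0818), and of these *Glmp* lies on chromosome 3. With 4 libraries such nearness is a description.

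**Figure D4:**
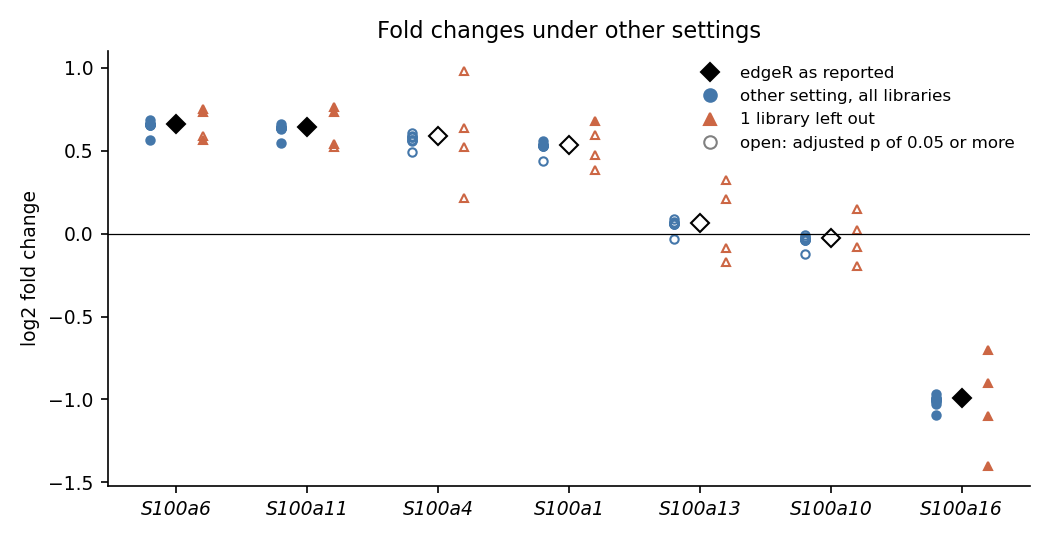
Log2 fold change of the 7 tested members as reported (black diamonds), under other settings on all libraries (blue circles) and with 1 library left out (orange triangles). Open symbols have an adjusted p of 0.05 or more. *S100a16* stays between -1.40 and -0.70 and *S100a6* between 0.56 and 0.75, whereas *S100a10* and *S100a13* lie on both sides of 0.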

How the data were processed

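Direct RNA of 4 libraries was basecalled by the authors with guppy, mapped to GRCm39 with minimap2 2.17 and counted per gene with HTSeq 0.9.1, and whole counts were deposited without normalization. The annotation release and the strand setting are not given in the sources used here. Reads listed as not assigned to a gene were left out of tests and library sizes. GENCODE vM39 (GRCm39) gave symbols to 56017 of 56748 gene IDs and all positions except those of RefSeq promoters.

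Counts were compared in edgeR 4.0.16 (R 4.3.3) with TMM, filterByExpr and the quasi-likelihood test across all genes, as tested on simulated data. Normalized counts are scaled to the mean library size. Intervals of fold changes use the standard error and degrees of freedom of edgeR. Batches pair the libraries by the replicate number in the labels, which goes with the dates in the paper's supplement. Deviations from the group means of scrambled 1 and knockdown 1 correlated at 0.00258 over 4501 genes, and the block was an alternative, as were DESeq2 1.42.0, other factors and filters, removal of chromosome medians and leaving out libraries. Transcripts were mapped with minimap2 2.31-r1302. Libraries of a group were not duplicates (chi-square per gene 2.55 and 2.79, where counting error gives 1).

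The genes named are the members, partners that were called or pair with a member, neighbours that were called or overlap a member, and the nearest profiles. *Ubap2l*, *Tpm3*, *S100a7a*, *Anxa5*, *Anxa6* and *Plec* were named after their values were seen. The members and lists were chosen with earlier results of these data known.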

Additional observations from a re-analysis of the deposited data

How the results depend on the processing

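The number of members called lay between 2 and 4 over 13 alternatives, and *S100a16* was called in all of them. In 4 of these a library was left out, so that a group of 1 was compared with 2 and the lone library was assumed to vary like the other group. With chromosome medians removed, or with no fold change threshold, the p-values were those of edgeR as described, so these are not separate tests. With the replicate block 3 members were called, the same as without it (*S100a6* with an adjusted p of 0.0421), and 484 genes in all, and it changed no call among the members, partners and neighbours. Leaving out single libraries gave 2 to 3 members called, and took the call from *S100a6* (without scrambled 2) and from *S100a11* (without scrambled 1). *S100a1* was called with upper quartile factors, no filter on low counts, at least 10 counts in every library and without scrambled 1, at log2 fold changes of 0.56, 0.54, 0.53 and 0.68. The sign of *S100a10* turned to 0.15 without scrambled 1 and 0.02 without knockdown 1, where the range without single libraries was -0.20 to 0.15. That of *S100a13* turned to -0.032 with chromosome medians removed, -0.17 without scrambled 2 and -0.09 without knockdown 2, in a range of -0.17 to 0.32. The cause was not tested.

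Over all genes, 481 were called, 228 by DESeq2 with the local fit, 115 with the parametric fit, and 194 to 433 without single libraries, the lowest without knockdown 1. Partners called were 2 with no filter on low counts (2 of 26, against 3.66% of all genes) and 2 with at least 10 counts in every library (2 of 23, against 6.27%). By DESeq2 0 were called with either fit. Of the 26, 8 and 5 had an unadjusted p under 0.05, against 6.40% and 4.47% of all genes in those fits. The shares by DESeq2 and with no filter are over 16728 genes, which include those below the filter on low counts. Most partners passed that filter, so these shares are not like for like with the partners. With chromosome medians removed 0 partners were called. That setting shifts the fold changes and keeps the p-values of edgeR as described, so it is not a separate test of them. No neighbour was called in these settings, in which 0.687% to 6.27% of all genes were called, so that a count of 0 in 13 is near the share of all genes. The ratio of the summed level was 1.42, 1.08 without *S100a6*, and 1.36 to 1.49 without single libraries. At these depths no difference was detectable for *S100a3* or *S100a4*.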
